A study of Mus musculus with 6 samples.

Results

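The genes of bone morphogenetic protein (BMP) ligands and antagonists were measured in osteocytes with and without estrogen receptor alpha (ERα). Bmp2, Bmp3, Bmp4, Bmp5, Bmp6 and Bmp7 encode ligands, and Nog, Grem1, Chrd and Bambi encode antagonists. Every probe set that the platform annotation gives to exactly 1 of these 10 genes was taken, which gave 13 probe sets of 9 genes among 34945 probe sets of a single gene. Bmp5 and Bmp7 had 3 probe sets each and the other 7 genes had 1 each, while Bmp3 was not matched by any such probe set and was not analysed here. Of these 9 genes 7 passed the level filter of the gene-wise test, and Nog and Grem1 were below it and are given by their signals.

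Green fluorescent cells were sorted from the calvariae, the skull bones, of female C57/BL6 mice aged 10 to 12 days. The calvariae went through 6 digestions of 30 minutes, and the cells of fractions 4 to 6 were sorted. For each sample 1 Affymetrix GeneChip array was hybridised. In both genotypes the green protein was expressed from Dmp1-GFP, a reporter driven by the promoter of the osteocyte gene Dmp1. The knockout group, ERαΔOcy/ΔOcy, lacked ERα in osteocytes and had 3 arrays, and the control group of littermates had 3 arrays. The sorting gate took 10% to 15% of cells in mice with the reporter and 0.8% to 1.0% in mice without it. Controls are labelled wild type in the sample names and ERαflox/flox in the protocol. The promoter that drove Cre, and whether controls carried it, are not given in the labels or design text. The protocol speaks of pooled calvarial tissue and the design of RNA that was not pooled, so arrays of a group may share tissue and the p-values may then not measure the spread between mice.

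BMPs are secreted dimers of the TGF-β superfamily that assemble type I and type II receptor kinases on the cell surface. The receptors phosphorylate Smad1, Smad5 and Smad9, which enter the nucleus with Smad4 and switch on genes such as those of the Id and Msx families. The ligands were discovered by their ability to induce bone, and bone cells also make the secreted proteins that bind and block them, which keeps the signal local.

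None of the 7 tested genes differed between genotypes past an adjusted p of 0.05 (limma, 3 arrays against 3), where 0 of all 10916 genes tested (0%) passed. Bambi had the smallest p of them, with a level 0.32 lower on the log2 scale in knockout arrays and groups that did not overlap. Bmp4 had the largest difference, at -0.45, and passed the threshold only when control replicate 2 was left out. The tested ligands Bmp2, Bmp5, Bmp6 and Bmp7 lay between -0.10 and 0.05, and Chrd lay at 0.15.

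Promoter windows of 250 bases before and 50 bases after an annotated start site, from RefSeq on build GRCm38.p6, were found for 5 of the 10 genes: Bmp4, Bmp5, Bmp6, Grem1 and Chrd. Bmp2, Bmp3, Bmp7, Nog and Bambi had no entry. The windows of Bmp4 and Chrd are shown because, of the tested genes with a window, these had the largest lower and the largest higher difference. The Bmp4 window is chr14:46390620-46390919 on the minus strand and the Chrd window is chr16:20732877-20733176 on the plus strand. The start site of the Chrd window lies 1702 bases inside the annotated gene, while those of the other 4 windows are at the 5′ end of their gene. Capitals mark GGTCA, the half-site of the estrogen response element, and GGCGCC, a GC-rich motif that Smad1 and Smad5 bind, on either strand.
Bmp4: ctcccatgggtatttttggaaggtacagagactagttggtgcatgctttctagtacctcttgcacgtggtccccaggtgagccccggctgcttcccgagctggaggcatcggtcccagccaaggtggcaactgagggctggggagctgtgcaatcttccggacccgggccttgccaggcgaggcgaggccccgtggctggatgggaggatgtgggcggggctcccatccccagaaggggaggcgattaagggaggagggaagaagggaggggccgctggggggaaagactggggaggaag
Chrd: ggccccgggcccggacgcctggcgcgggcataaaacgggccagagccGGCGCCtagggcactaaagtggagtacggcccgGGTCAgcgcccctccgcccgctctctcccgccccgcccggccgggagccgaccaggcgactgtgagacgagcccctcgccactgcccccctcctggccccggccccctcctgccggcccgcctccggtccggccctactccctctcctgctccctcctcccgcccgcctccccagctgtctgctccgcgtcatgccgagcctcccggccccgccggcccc

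The palindromic estrogen response element GGTCANNNTGACC, which contains the half-site GGTCA on both strands, was in 0 of these 5 windows and in 0.07% of all 32851 windows of 300 bases. The half-site GGTCA was found once in Chrd, at position -170 from the start site of that window, and in 40.5% of all windows. The window of Chrd also held GGCGCC once, at position -203, and 11.9% of all windows held it. Grem1 held both motifs, Bmp6 held the half-site only, and neither motif was in the windows of Bmp4 and Bmp5. Such a match is a description of the letters in these windows.

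Within a group, values are listed in the order of replicates 1, 2 and 3. They are given as the deposited signal, in linear arbitrary units, and as the log2 level, which is log2(signal + 16) after quantile normalisation of the arrays. A log2 difference is knockout minus control of these levels, and the constant 16 makes it smaller than the true change where signals are low. Array medians of the deposited signal ran from 18.7 to 28.5, with the highest in knockout replicate 3. Of the 11 osteocyte markers 10 were tested, with Dmp1 and Phex among them, and Fgf23 was below the level filter. The number of arrays limits the precision. In bulk RNA of sorted cells, fewer cells of a type and less RNA per cell cannot be told apart.

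**Figure D1:**
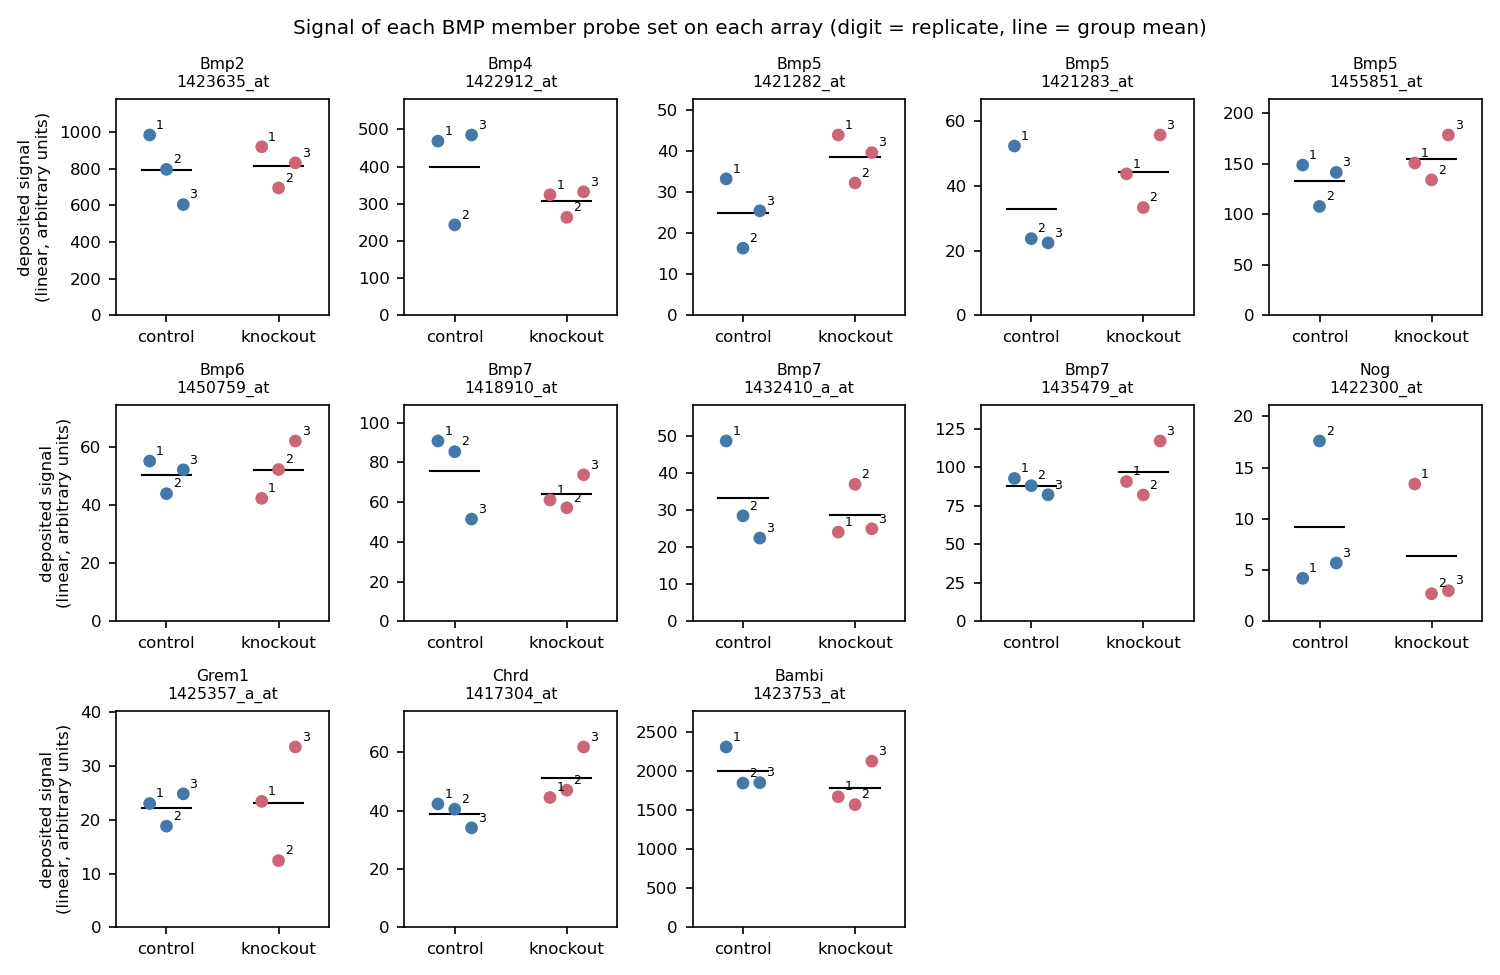
Deposited signal (y axis, linear arbitrary units, from 0) of each of the 13 probe sets on the 3 control and 3 knockout arrays; digits are replicate numbers and lines are group means. Bmp4 was high in control replicates 1 and 3 (468.1 and 484.7) and low in control replicate 2 (243.2), and all 3 Chrd values of the knockout arrays lay above those of the control arrays.

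Bmp2 and Bmp4 encode closely related ligands, both of them strong inducers of bone formation. The Bmp2 probe set, 1423635_at, read 983.9, 796.3 and 604.3 on the control arrays and 919.5, 695.0 and 831.9 on the knockout arrays. The groups overlapped over most of their range. The log2 level of Bmp2 averaged 9.71 ± 0.22 (SD, n = 3) over control arrays and 9.61 ± 0.27 (SD, n = 3) over knockout arrays. The log2 difference of Bmp2 was -0.10 ± 0.16 (SE), with a 95% interval from -0.48 to 0.28 (limma adjusted p = 0.869). With the deposited scaling, under which the median over all tested genes is 0.14 in place of -0.01, the Bmp2 difference was 0.05.

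The Bmp4 probe set, 1422912_at, read 468.1, 243.2 and 484.7 on the control arrays and 324.1, 263.4 and 332.1 on the knockout arrays. All 3 knockout values lay between those of control replicate 2 and of the other controls, so the groups overlapped. The log2 level of Bmp4 averaged 8.71 ± 0.54 (SD, n = 3) over control arrays and 8.26 ± 0.17 (SD, n = 3) over knockout arrays, which corresponds to a fold of 0.73. Its log2 difference was -0.45 ± 0.25 (SE), with a 95% interval from -1.04 to 0.13 (limma adjusted p = 0.568). Without control replicate 2 it was -0.75 ± 0.14 (SE, limma adjusted p = 0.0405), in a fit where 2.73% of genes passed. In the fit over all probe sets it did not pass without that array (limma adjusted p = 0.0899). Without control replicate 3 the Bmp4 difference was -0.23. Bmp4 had a lower mean in knockout arrays under each of the 16 alternative settings, with limma adjusted p from 0.0405 to 0.821. Several of these could not move the difference of a gene with 1 probe set. Those that changed only the level filter, the probe set rule, the variance model or the replicate block left it at -0.45.

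Osteocyte markers stood above their mean of all arrays in control replicates 1 and 3 and below it in control replicate 2, as Bmp4 did. The 10 tested osteocyte markers stood at 0.10, -0.25 and 0.31 on control arrays against -0.08, 0.02 and -0.10 on knockout arrays, each relative to the mean of all arrays. Of them 7 were lower and 3 higher, with a median log2 difference of -0.13 and summed signals from 11287.4 to 14615.2 and from 11001.5 to 14480. Dmp1, the gene whose promoter drives the reporter, differed by -0.30 ± 0.10 with overlapping groups (SE, limma adjusted p = 0.410). Dkk1, which encodes a secreted Wnt antagonist, differed by -0.70 ± 0.20 with separate groups (SE, limma adjusted p = 0.349). The 3 higher markers, all with overlapping groups, were Mepe at 0.45 ± 0.30, Sost at 0.21 ± 0.30 and Capg at 0.05 ± 0.11 (SE).

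Among markers of other tissues, control replicate 2 stood farthest from the other controls in muscle. The level of the 11 tested skeletal muscle markers, of 13 listed, stood at 1.94, -3.54 and 1.83 on control arrays against -0.57, -0.59 and 0.93 on knockout arrays. Their summed signal ran from 213.4 to 37820.9 in control arrays and from 4704.3 to 22088 in knockout arrays. The 11 pericyte and smooth muscle markers, all of them tested, stood at 0.39, -0.27 and 0.51 on control arrays against -0.17, -0.19 and -0.28 on knockout arrays. Their summed signal ran from 16106.1 to 25652.1 and from 15633.7 to 18949.8. The 9 tested suture and adventitial fibroblast markers, of 11 listed, stood at 0.73, -0.74 and 0.52 on control arrays against -0.18, -0.24 and -0.09 on knockout arrays, with summed signals from 3266.3 to 7544.1 and from 3607.3 to 5561. The 2 tested adipocyte markers, of 6 listed, were Lpl and Fabp4. They stood at 0.42, -0.49 and 0.59 against -0.12, -0.19 and -0.21, with summed signals from 1435.2 to 3100.7 and from 1846.7 to 2344.9. Adipoq and Pparg, of the same list, were below the level filter and did not share this pattern. Adipoq was highest in control replicate 2, with log2 levels of 5.07, 5.57 and 4.7 against 5.46, 5.11 and 4.81. Pparg was lowest in control replicate 1, with 4.65, 5.13 and 5.31 against 5.25, 5.23 and 4.83. In these lists 0 measured markers were at a signal of 0 on any array. Like Bmp4, the mean levels of the tested pericyte and smooth muscle markers, of the tested fibroblast markers and of Lpl and Fabp4 were high in control replicates 1 and 3. They were below the mean on the other 4 arrays. Within the pericyte and smooth muscle list, Rgs5, Abcc9 and Kcnj8 did otherwise and were above their own mean on every control array. Rgs5 had control log2 levels of 13.18, 13.09 and 13.18 against 12.66, 12.56 and 12.46 for knockout. The other markers of that list, such as Acta2, Myh11 and Tagln, were below their own mean in control replicate 2. Other lists had other patterns. Endothelial markers stood at -0.07, -0.24 and 0.31 on control arrays against 0.16, 0.10 and -0.26 on knockout arrays. Macrophage markers stood at -1.39, 0.66 and 0.63 against 0.32, 0.15 and -0.36. The part of any of these cells in the Bmp4 difference was not tested.

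**Figure D2:**
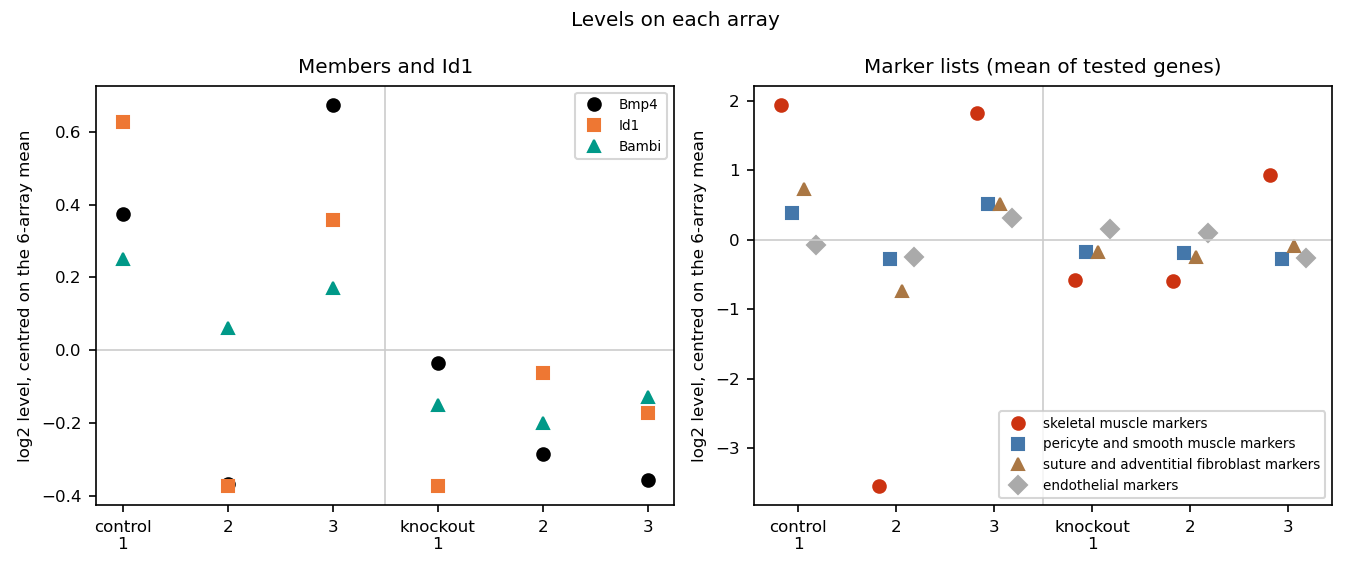
Log2 level centred on the mean of the 6 arrays (y axis) for each array (x axis), with Bmp4, Bambi and the BMP target Id1 on the left and the mean of the tested genes of 4 marker lists on the right, on a wider y scale. Bmp4 stood highest in control replicates 1 and 3, where muscle markers stood at 1.94 and 1.83. The lowest muscle value, -3.54, was that of control replicate 2. In knockout replicate 3 muscle markers stood at 0.93, where Bmp4 was below its mean.

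Bmp5, Bmp6 and Bmp7 encode a subgroup of ligands that resemble each other more than they resemble Bmp2 and Bmp4. The Bmp5 probe set with the highest mean, 1455851_at, read 148.6, 107.7 and 141.3 on the control arrays and 150.6, 133.9 and 178.3 on the knockout arrays. The log2 difference of Bmp5 was 0.05 ± 0.13 (SE), with a 95% interval from -0.26 to 0.35 (limma adjusted p = 0.920), and the groups overlapped. It was -0.06 without control replicate 2, the array with the lowest value. The other 2 probe sets of Bmp5 were dimmer and differed more. Signals of 1421282_at were 33.3, 16.4 and 25.5 in control and 44.0, 32.3 and 39.7 in knockout arrays, where the groups overlapped by 1 array. Its log2 difference was 0.32 ± 0.20 (SE, limma over all probe sets, adjusted p = 0.703), and that of 1421283_at was 0.23 ± 0.22 (SE). The 3 probe sets had the same sign, which is not independent evidence because they read the same RNA samples.

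Bmp6 read 55.1, 43.9 and 52.1 on the control arrays and 42.3, 52.2 and 62.0 on the knockout arrays. Neither group stood above the other, and the log2 difference of Bmp6 was -0.10 ± 0.14 (SE), with a 95% interval from -0.43 to 0.22 (limma adjusted p = 0.833). It was 0.03 with the deposited scaling.

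Bmp7 was read by 3 probe sets that differed in size and not in sign. The one with the highest mean, 1435479_at, read 92.8, 88.1 and 82.2 on the control arrays and 90.8, 82.1 and 117.1 on the knockout arrays. Knockout replicate 3, the array with the highest median of all probe sets, was the highest, and the other knockout values lay within or at the edge of the control range. The log2 difference was -0.03 ± 0.10 (SE), with a 95% interval from -0.27 to 0.21 (limma adjusted p = 0.937), and 0.11 with the deposited scaling. For 1418910_at the signals were 90.8, 85.4 and 51.5 in control and 61.1, 57.2 and 73.8 in knockout arrays. Control replicates 1 and 2 were high and control replicate 3 was the lowest of all 6 arrays, so the groups overlapped, and the log2 difference was -0.31 ± 0.17 (SE, limma over all probe sets, adjusted p = 0.653). The remaining probe set, 1432410_a_at, had -0.21 ± 0.24 (SE).

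Among the antagonists, Bambi encodes a membrane protein that resembles a type I receptor without a kinase and acts as a decoy for BMP and TGF-β signals. Its probe set, 1423753_at, read 2314.1, 1850.7 and 1856.9 on the control arrays and 1676.0, 1574.1 and 2132.9 on the knockout arrays. On this scale knockout replicate 3 lay above control replicates 2 and 3. After normalisation the log2 levels of Bambi were 11.14, 10.95 and 11.06 in control and 10.74, 10.69 and 10.76 in knockout arrays, and the groups no longer overlapped. The log2 difference was -0.32 ± 0.08 (SE), a fold of 0.80, with a 95% interval from -0.51 to -0.13. Its unadjusted p was 0.00442, the 165th smallest among 10916 genes, and the limma adjusted p was 0.291. With the deposited scaling the difference was -0.16 ± 0.19 (SE), and without control replicate 2 it was -0.37 (limma adjusted p = 0.0644). Its sign was the same under all 16 alternatives, with limma adjusted p from 0.0644 to 0.878. As for Bmp4, those that changed only the level filter, the probe set rule, the variance model or the replicate block could not move the difference.

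Chrd encodes chordin, a secreted protein that holds BMP2 and BMP4 away from their receptors until it is cleaved. The Chrd probe set, 1417304_at, read 42.3, 40.5 and 34.1 on the control arrays and 44.5, 47.0 and 61.8 on the knockout arrays. Knockout values lay above control values on the deposited and, narrowly, on the normalised scale. The log2 levels were 5.81, 5.92 and 5.80 in control and 5.93, 6.05 and 6.00 in knockout arrays. The log2 level of Chrd averaged 5.84 ± 0.07 (SD, n = 3) over control arrays and 5.99 ± 0.06 (SD, n = 3) over knockout arrays. The log2 difference was 0.15 ± 0.12 (SE), with a 95% interval from -0.13 to 0.44 (limma adjusted p = 0.691). Its SE is larger than the SDs alone would give because limma draws the variance of each gene towards that of genes of like level.

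Nog encodes noggin and Grem1 encodes gremlin 1, both secreted proteins that bind BMPs directly. Nog read 4.2, 17.6 and 5.7 on the control arrays and 13.4, 2.7 and 3.0 on the knockout arrays. Control replicate 2 and knockout replicate 1 were high, and the other arrays were low in both groups. Grem1 read 23.0, 18.8 and 24.8 on the control arrays and 23.4, 12.4 and 33.5 on the knockout arrays, so that the knockout arrays held both the lowest and the highest value. In these female mice 12 probe sets of 5 Y-linked genes gave signals from 0.1 to 37.5 with a median of 3.2, and 98.6% were under 16. Grem1 was above 16 on every array but knockout replicate 2, and Nog only on control replicate 2. Without detection calls, the levels of Nog and Grem1 carry no bound. In the fit over all probe sets the log2 difference was -0.21 ± 0.26 for Nog and -0.11 ± 0.20 for Grem1 (SE). With a constant of 1 in place of 16 these were -0.69 ± 0.75 and -0.20 ± 0.35, and with 64 they were -0.07 ± 0.09 and -0.05 ± 0.08 (SE).

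**Figure D3:**
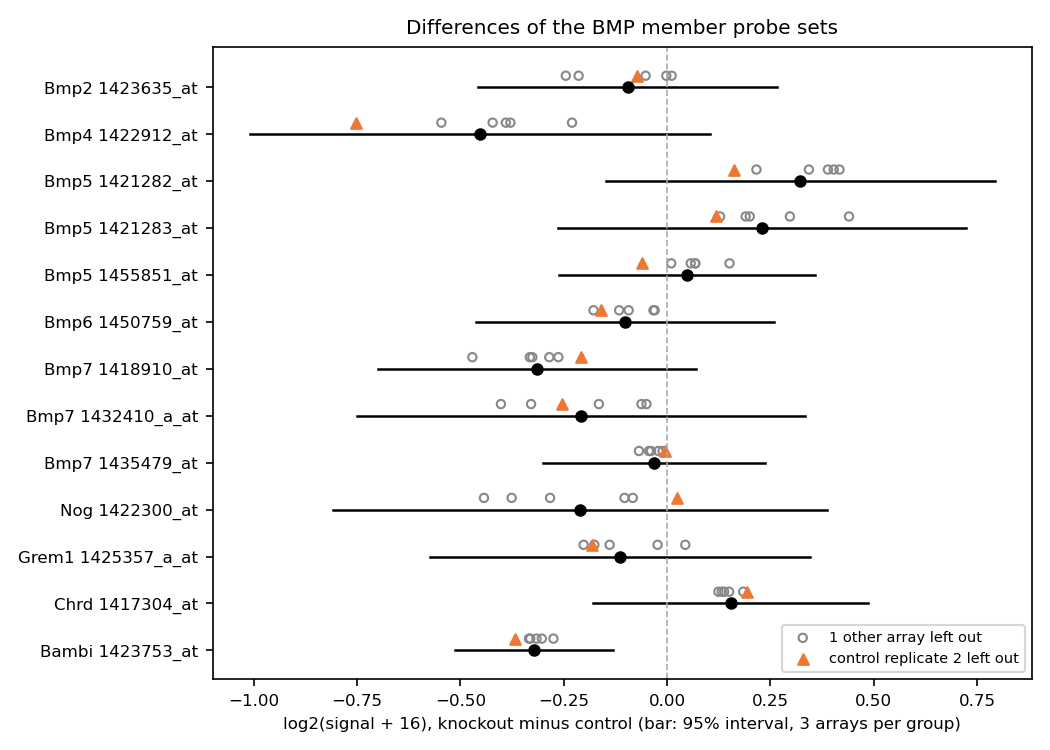
Log2 difference, knockout minus control (x axis), of each of the 13 probe sets, with the 95% interval of the limma fit over all probe sets as a bar; open circles and triangles are the difference with 1 array left out. Only the interval of Bambi does not reach 0, and the Bmp4 value without control replicate 2 (-0.75) lies farthest from its value with all arrays (-0.45).

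Across the 7 tested genes, 5 lay lower and 2 lay higher in knockout arrays, where 48.3% of all genes lay higher, with a median log2 difference of -0.10 against -0.01 for all genes. With the deposited scaling 2 were lower and 5 higher, with a median of 0.05 against 0.14 for all genes, and under both scalings 2 of the 7 lay above the median of all genes. At an unadjusted p under 0.05 there was 1 of the 7, Bambi, where 10.5% of all genes were found. Groups did not overlap for 2 of the 7, Bambi and Chrd, and for 17.0% of all genes, of which 7.76% were lower and 9.23% higher in the knockout. With 3 arrays per group, the smallest 2-sided p of an exact permutation test is 0.1. Of the 13 probe sets 2 had groups that did not overlap, against 14.2% of all 45037 probe sets, and 0 passed the threshold over all probe sets (0%). The control SD exceeded the knockout SD in 9 of 13 probe sets (69.2%) and in 60.3% of all probe sets.

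Other antagonists and modulators of BMPs and related ligands were higher in 10 and lower in 2 of 12 tested genes, with a median log2 difference of 0.18 and 0 past the threshold. This list was written with earlier results for Sostdc1 and Sost known, so its direction is not independent evidence. Without control replicate 2 it held 7 higher and 5 lower genes with a median of 0.11. Marker lists of other cell types went both ways on these arrays. Lower in the knockout were 10 of 11 pericyte and smooth muscle, 6 of 9 fibroblast, 2 of 2 tested adipocyte and 5 of 6 neutrophil markers. Chondrocyte and meningeal markers went the way of the antagonist list. All 13 chondrocyte markers were tested, 12 of them higher, at -0.23, -0.94 and -0.63 on control arrays against 0.79, 0.91 and 0.09 on knockout arrays, with summed signals from 2876.4 to 4715.1 and from 6006.5 to 8381.5. Of 8 meningeal markers 7 were tested and 6 were higher, at -0.28, -0.36 and -0.21 against 0.34, 0.26 and 0.26, with summed signals from 4032 to 5350.3 and from 6530.8 to 9010.4. The antagonist list itself stood at -0.08, -0.24 and 0.04 against 0.10, 0.12 and 0.06, and the part of these cells in it was not tested.

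The members of this list with the smallest p were Crim1, Sostdc1, Fst and Bmper. Crim1, a membrane-bound BMP-binding protein, had control log2 levels of 6.38, 6.45 and 6.74 against 6.87, 7.25 and 7.24 for knockout. The groups did not overlap, and the log2 difference was 0.60 ± 0.15 (SE, limma adjusted p = 0.311). Sostdc1, whose product blocks BMP and Wnt ligands, had control log2 levels of 5.58, 6.01 and 5.77 against 6.59, 6.40 and 6.22 for knockout, a log2 difference of 0.62 ± 0.16 (SE, limma adjusted p = 0.315). Fst, which encodes the activin and BMP antagonist follistatin, differed by 0.34 ± 0.11, and Bmper, a BMP-binding endothelial regulator, by 0.31 ± 0.13 (SE). Fstl3, named after its values were seen, was the lower member with separate groups, at -0.35 ± 0.16 (SE).

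Of 12 further ligand genes 8 had a probe set of a single gene, and 2 of these passed the level filter. Gdf10, whose product is the closest relative of BMP3, had control log2 levels of 9.14, 9.43 and 10.28 against 10.22, 10.49 and 10.16 for knockout. Control replicate 3 lay within the knockout range, and the log2 difference was 0.68 ± 0.27 (SE, limma adjusted p = 0.450). Bmp8a differed by 0.03 ± 0.14 (SE). Genes for the processing of chordin and of BMP propeptides were higher in 2 and lower in 3 of 5, 0 of them past the threshold, and the median was -0.07. The median was 0.09 with the deposited scaling and without control replicate 2. Bmp1, which despite its name is a protease that cleaves chordin and procollagens, had control log2 levels of 9.58, 9.43 and 9.55 against 9.31, 9.28 and 9.28 for knockout. Its groups did not overlap, and its log2 difference was -0.23 ± 0.08 (SE, limma adjusted p = 0.419). Pcolce, an enhancer of procollagen cleavage by that protease, differed by -0.07 ± 0.05, and the proprotein convertases Pcsk6 and Furin by 0.18 ± 0.18 and -0.08 ± 0.18 (SE).

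Receptors and coreceptors were higher in 6 and lower in 4 of 10, 0 of them past the threshold, and the median was 0.07. The median was -0.04 when the probe sets of a gene were averaged and 0.22 with the deposited scaling, and 5 genes were higher and 5 lower with median scaling. Neo1, which encodes neogenin, a receptor of the repulsive guidance molecules that act as BMP coreceptors, had control log2 levels of 9.32, 9.37 and 9.23 against 9.67, 9.63 and 9.82 for knockout. The groups did not overlap, and the log2 difference was 0.40 ± 0.09 (SE, limma adjusted p = 0.274). The type I receptor genes Bmpr1a and Acvrl1 differed by 0.13 ± 0.10 and -0.21 ± 0.13, and Eng, an accessory receptor of endothelial cells, by 0.21 ± 0.14 (SE). Hjv, a BMP coreceptor gene known from liver and skeletal muscle and named after its values were seen, had control log2 levels of 7.24, 4.73 and 7.48 against 5.41, 5.52 and 6.01 for knockout. It was low in control replicate 2, as the muscle markers were, and passed the threshold without that array (-1.72, limma adjusted p = 0.011).

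Smad transducers and their inhibitors were higher in 9 and lower in 1 of 10, by small amounts, 0 of them past the threshold, and the median was 0.08. Smad7, an inhibitory Smad, had control log2 levels of 7.74, 7.79 and 7.64 against 8.02, 7.82 and 7.98 for knockout, with groups that did not overlap and a log2 difference of 0.22 ± 0.10 (SE, limma adjusted p = 0.507). The ubiquitin ligases Smurf1 and Smurf2, which mark Smads for breakdown, differed by 0.35 ± 0.15 and 0.10 ± 0.09, and Smad1 by 0.08 ± 0.08 (SE).

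Target genes of BMP signalling were higher in 7 and lower in 6 of 13, 0 of them past the threshold, and the median was 0.02. Id1, a direct target that encodes an inhibitor of basic helix-loop-helix factors, had control log2 levels of 10.83, 9.83 and 10.56 against 9.83, 10.14 and 10.03 for knockout. As for Bmp4, control replicates 1 and 3 were high and control replicate 2 was not. The log2 difference of Id1 was -0.41 ± 0.24 (SE, limma adjusted p = 0.581), and -0.69 ± 0.13 without control replicate 2 (SE, limma adjusted p = 0.037). Gata2 differed by 0.35 ± 0.15, Msx2 by 0.26 ± 0.15 and Sp7, which drives osteoblast differentiation, by -0.17 ± 0.10 (SE). Without control replicate 2, Bmp4, Hjv and Id1 were the genes of these lists past the threshold, all lower. In that fit 298 of all 10916 genes (2.73%) passed, 212 of them lower and 86 higher.

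**Figure D4:**
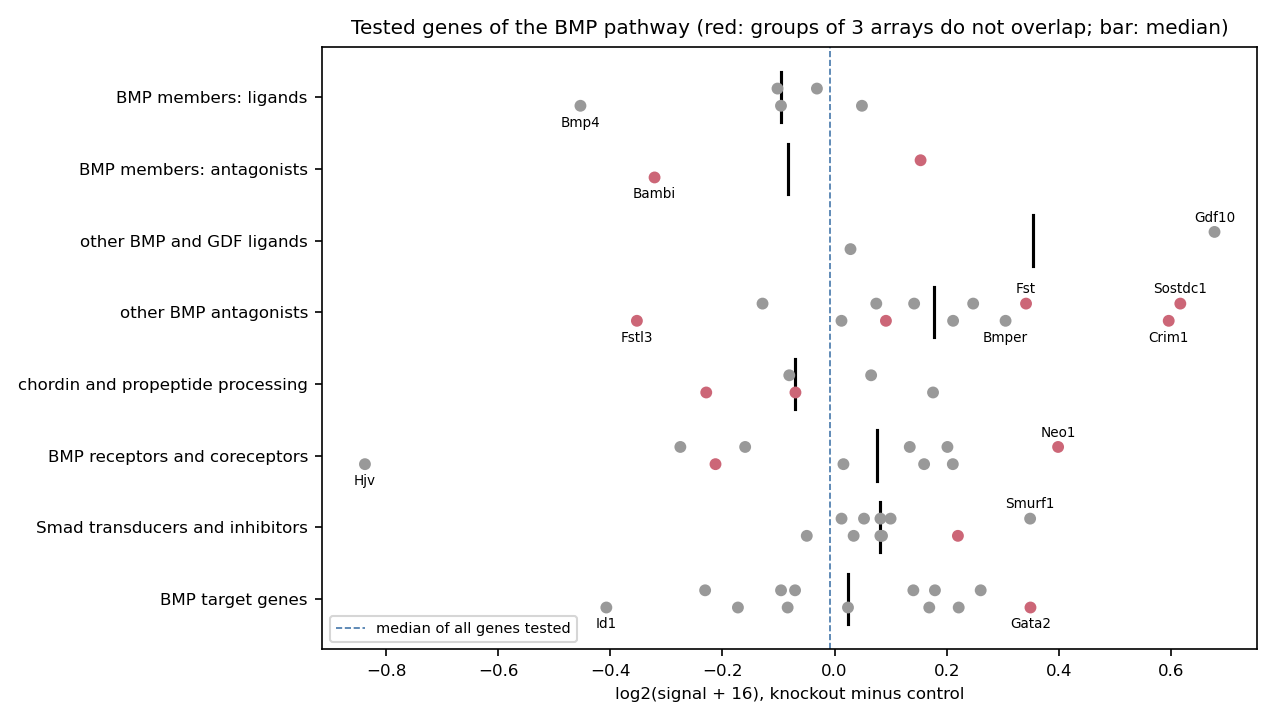
Log2 difference, knockout minus control (x axis), of each tested gene in 8 lists of the BMP pathway; black bars are list medians, red points are genes whose groups of 3 arrays do not overlap, and the dashed line is the median of all genes tested (-0.01). Genes at 0.3 or more from 0 are named, among them Bmp4 (-0.45) and Bambi (-0.32).

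The tested genes whose pattern over the 6 arrays was most like that of Bmp4 were Ankrd40, the phosphatase gene Ptp4a3 and Atp1b2, which encodes a subunit of the sodium pump, with Pearson's r of 0.998, 0.993 and 0.992. Atp1b2 had control log2 levels of 7.44, 6.53 and 7.74 against 6.83, 6.70 and 6.65 for knockout. For Bambi they were the zinc finger gene Zfp467, the deubiquitinase gene Otud1 and the splicing factor gene Ik, with r of 0.998, 0.995 and 0.991. These r describe 6 shared arrays and are the highest among 10915 genes each, of which 67 exceeded 0.95 with Bmp4 and 45 with Bambi.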

How the data were processed

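Total RNA of 6 samples was measured on Affymetrix arrays. The authors deposited 1 signal per probe set and array, an intensity on a linear scale; the submitters' processing notes name GCOS, and no label records the background correction, the probe summary or the scaling target. Here log2(signal + 16) was computed and quantile normalised over 45037 probe sets, after 64 control probe sets were left out. Names came from the platform annotation, which gave several genes for 932 probe sets and none for 9160. Each of 18193 genes was represented by its brightest probe set on average, and the 40% with the lowest means, below 5.37 on the log2 scale, were not tested. The groups were compared in R 4.3.3 with limma 3.58.1 (lmFit, eBayes with trend, no covariate, 2-sided, Benjamini-Hochberg over 10916 genes). A second fit covered all probe sets. The steps were tested on simulated data in which genes varied independently and no array stood apart, unlike control replicate 2 here. Members, lists and tests were chosen with earlier results of these data known. Named genes are the 10 members, up to 4 genes per pathway list with the smallest p, and the 3 genes most like each of the 2 members with the largest difference, besides cell type markers; Fstl3 and Hjv are exceptions, added once their values had been seen. Same-numbered replicates did not vary together (r = -0.38, 0.10 and -0.04 for numbers 1, 2 and 3), so the numbers were not used as pairs. Alternatives were other scalings, pseudocounts, level filters, probe set rules and variance models, array weights, a replicate block, and each array left out.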

Additional observations from a re-analysis of the deposited data

How the results depend on the processing

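Of 439 values recomputed under an alternative, 411 kept their direction and their side of the threshold, or moved by less than the spread between arrays. Under the deposited scaling 30 genes passed as higher and 0 as lower, 0 of them BMP ligands or antagonists. The median of all genes was then 0.135, and the medians were 0.054 for the 7 tested BMP genes, 0.334 for other antagonists, 0.086 for chordin and propeptide processing, 0.229 for Smad genes and 0.192 for target genes. Under that scaling the sign turned for Bmp2 (0.054), Bmp6 (0.032) and Bmp7 (0.109 for its brightest probe set), and the Grem1 difference was 0. The chordin and propeptide median was 0.065 with no level filter. The target gene median was -0.071 with the lowest 60% left out, where Chrd and Bmp6 were not tested, and -0.04 when the probe sets of a gene were averaged, where the Smad median was 0.033 and the receptor median -0.043. These last medians cover other genes or other probe sets than the ones reported. The cause of the other changes was not tested.

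With 1 array left out in turn, the genes past the threshold ran from 0 to 86 higher and from 0 to 212 lower. The BMP genes past it ran from 0 to 1, which was Bmp4 without control replicate 2. Ranges over single arrays left out were -0.752 to -0.23 for Bmp4, -0.061 to 0.151 for Bmp5, -0.245 to 0.011 for Bmp2, -0.443 to 0.024 for Nog, -0.202 to 0.044 for Grem1 and -0.082 to 0.088 for the chordin and propeptide median. With the replicate number as a block, 0 genes passed, Bambi had an adjusted p of 0.611 and Bmp4 of 0.664 (limma), and no call changed. Dim signals limit what can be said of Nog and Grem1.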
